A study of Mus musculus with 2 samples.

Results

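Mmp12 Hilpda macrophages are a small set of tumour macrophages whose barcodes carried both the mRNA of a macrophage elastase and the mRNA of a lipid droplet protein that is induced under low oxygen. They were taken from CD45+ cells of subcutaneous MC38 tumours, a mouse colon carcinoma line grown in C57BL/6 mice, read by 10x Genomics 3' sequencing of single cells. The tumours came from mice labelled UEIS LSL and UEIS KI (the labels expand neither name), and each group held 1 library. The labels give no age, sex, time of growth or number of mice, and do not say whether mice were pooled or which cells carry the UEIS KI allele. The members were chosen by UMI counts. A barcode was a member when it held at least 500 UMIs (unique molecular identifiers, 1 per captured mRNA molecule), at least 200 genes and at most 10% mitochondrial UMIs. It further needed at least 10 UMIs of C1qa, C1qb and C1qc together, no UMI of Cd3d, Cd3e or Cd3g, no UMI of Cxcl9 or Rsad2 and at most 1 UMI of Lyve1. The last condition was at least 3 UMIs of Mmp12 and at least 2 of Hilpda. In all 943 of 19261 deposited barcodes were members, 346 of 9527 in UEIS LSL and 597 of 9734 in UEIS KI. They were set against 5253 barcodes, 2840 in UEIS LSL and 2413 in UEIS KI, that met the same conditions except the one on Mmp12 and held no Hilpda UMI, called Hilpda-zero macrophages here.

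Macrophages in poorly perfused parts of a tumour stabilise the transcription factor HIF-1, which binds a short core motif in hypoxia response elements and raises genes of glucose uptake, glycolysis, mitophagy and blood vessel growth. Hilpda (hypoxia inducible lipid droplet associated) inhibits the lipase that breaks down stored triglyceride, so lipid droplets persist, and Plin2 coats those droplets. Mmp12, macrophage metalloelastase, degrades elastin and other matrix proteins and is made mostly by macrophages. Oxygen was not measured here, so the cells are named by the genes that chose them and not by an oxygen state.

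The core motif of hypoxia response elements was searched for on both strands in the 250 bases before the RefSeq transcription starts (GRCm38.p6), as ACGTG or GCGTG, with overlapping matches counted. The stretches around matches in 5 genes of the hypoxia and lipid droplet groups are printed. Hilpda was used by the rule, so its level separates the members by choice. The levels of the other genes are given in the paragraphs that follow. Each reads 5′ to 3′ on the strand of its gene, with a match in capitals (CACGC is GCGTG on the other strand).
Hilpda, chr6:29272606-29272625, plus strand: caggttcggtacGCGTGcgc
Bnip3, chr7:138909525-138909553, minus strand: ggctccgccgccGCGTGcgtcccgccccg
Slc2a1, chr4:119108697-119108725, plus strand: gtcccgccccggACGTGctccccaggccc
Egln3, chr12:54204079-54204123, minus strand: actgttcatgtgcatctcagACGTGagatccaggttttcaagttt
Plin2, chr4:86670121-86670165, minus strand: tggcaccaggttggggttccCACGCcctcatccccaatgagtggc
The Hilpda window at its downstream start held 3 matches and the window at its upstream start held 0, while Bnip3 held 5, Slc2a1 2, Egln3 1 and Plin2 1. The Hilpda stretch lies inside the gene of the upstream start, and the Slc2a1 stretch also overlaps an annotated exon. Of all 27025 genes with a window, 41.5% held a match in at least 1 window. In the hypoxia response list 24 of 26 genes with a window did (92.3%), and in the glycolysis list 13 of 15 (86.7%). Base composition moved with this, since the median GC content was 66.4% over the hypoxia response windows and 52.4% over the windows of all genes, and its part in the count was not tested. Mmp12, Mmp13 and Tnfrsf9, 3 genes high in the members, had no match in their windows. A match is a run of letters and was not shown to be bound.

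The gate narrowed each library step by step. Quality limits left 9370 UEIS LSL and 9442 UEIS KI barcodes, the C1q limit left 5987 and 6282, and the Cd3 limit left 5693 and 6155. The limits on Cxcl9, Rsad2 and Lyve1 then took unequal numbers from the libraries. Cxcl9 took out 684 barcodes in UEIS LSL and 185 in UEIS KI, Rsad2 took out 552 and 305, and Lyve1 took out 374 and 1138, with some barcodes over several limits. What remained, 4237 and 4653 barcodes, is called the C1q-gated macrophages. Of these, 684 in UEIS LSL and 915 in UEIS KI held at least 3 Mmp12 UMIs, and 816 and 1492 held at least 2 Hilpda UMIs. Hilpda lies on chromosome 6 at 29272488 to 29275446 on the plus strand, Mmp12 on chromosome 9 at 7344381 to 7369499 on the plus strand and Plin2 on chromosome 4 at 86648386 to 86670060 on the minus strand (GRCm38).

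The members held a median of 15 Mmp12 UMIs per barcode in both libraries, with a highest value of 520 in UEIS LSL and 436 in UEIS KI. Their median of Hilpda was 6 UMIs in UEIS LSL and 7 in UEIS KI, with highest values of 43 and 54. Some members sat at the edge of the gate. Exactly 2 Hilpda UMIs were held by 63 members in UEIS LSL and 73 in UEIS KI, and exactly 3 Mmp12 UMIs by 32 and 52. Just outside it, 88 and 99 barcodes with enough Mmp12 held 1 Hilpda UMI, and 38 and 90 barcodes with enough Hilpda held 2 Mmp12 UMIs. Because the rule asks for numbers of UMIs, it favours deep barcodes. The median member held 11347 UMIs from 2951 genes in UEIS LSL, and in UEIS KI 12446 UMIs from 3145 genes. The median Hilpda-zero macrophage held 8525.5 UMIs and 2727 genes, and 9404 UMIs and 2928 genes.

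Libraries were read to similar depth, 92764697 UMIs in UEIS LSL and 99404988 in UEIS KI. With 1 library per group no difference was tested, and every 95% interval covers counting error only and not the spread between mice. The libraries shared 34 barcode sequences, among them 1 that was a member in both. Doublets stayed in, and 72 of 346 members in UEIS LSL and 76 of 597 in UEIS KI were among the barcodes with the highest Scrublet doublet scores. The same held for 171 of 2840 and 154 of 2413 Hilpda-zero macrophages. Levels are CPM, the UMIs of a gene scaled to a summed group of 1000000 UMIs. A CPM value from 3' ends is compared between groups of cells and never between genes.

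The members made up 8.17% of the C1q-gated macrophages in UEIS LSL (346 of 4237, exact Clopper-Pearson 95% interval 7.36 to 9.03%) and 12.8% in UEIS KI (597 of 4653, 11.9 to 13.8%). The UEIS KI share was 1.57-fold that of UEIS LSL, a log2 ratio of 0.65. The gap was smaller at equal depth and without the interferon and Lyve1 limits. After thinning each barcode to 3000 UMIs the shares were 2.58% and 3.66%, a log2 ratio of 0.51, with the limits applied after thinning. Without the limits on Cxcl9, Rsad2 and Lyve1 they were 9.54% and 11.5%, a log2 ratio of 0.27. Both limits of the gate could be read together, as a description, since they define the members. Among C1q-gated barcodes with at least 3 Mmp12 UMIs, 50.6% held at least 2 Hilpda UMIs in UEIS LSL and 65.2% in UEIS KI, whereas among barcodes with no Mmp12 UMI 11.8% and 21.5% did. After thinning to 3000 UMIs these shares were 32.0% against 5.68% in UEIS LSL and 40.2% against 8.95% in UEIS KI.

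UMIs of the gate genes were also seen in T cell barcodes, where free RNA and expression cannot be told apart. T cell barcodes with under 10 C1q UMIs numbered 132 in UEIS LSL, with a median of 3404.5 UMIs, and 119 in UEIS KI, with 2193. Those with at least 1000 UMIs, 127 and 115, were thinned with the members to 1000 UMIs. A Mmp12 UMI was then seen in 69.4% of members and 16.5% of T cell barcodes in UEIS LSL, and in 64.8% and 8.70% in UEIS KI. A Hilpda UMI was seen in 45.4% and 25.2% in UEIS LSL, and in 47.7% and 13.9% in UEIS KI. T cells can express Hilpda themselves, and the limit on C1q left out T cell barcodes with more macrophage RNA. The T cell shares are therefore no measure of the amount of free RNA. The T cell shares were all below those in members, which the rule chose for holding both genes, so that gap is no check on free RNA. For Mmp12 the Hilpda-zero macrophages stood at 6.68% and 6.32%, below the T cell share in UEIS LSL and inside its exact 95% interval of 4.25 to 15.4% in UEIS KI.

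The label was checked against its markers and against those of other cell types. All 12 macrophage markers, the C1q genes of the rule among them, were detected in members. Their summed level was lower than in Hilpda-zero macrophages, 14389.5 against 20272 CPM in UEIS LSL and 13189 against 19454 CPM in UEIS KI. Cd68, a lysosomal glycoprotein of macrophages, stood at 725 CPM in UEIS LSL members and 728 in UEIS KI members, and Csf1r, the receptor for the growth factor that keeps macrophages alive, at 469 and 416. C1q itself was lower in members than in Hilpda-zero macrophages, 7288 against 11018 CPM in UEIS LSL and 6738 against 10845 in UEIS KI. The T cell markers summed to 5.77 and 4.19 CPM in members against 2.13 and 1.42 CPM in Hilpda-zero macrophages, with Cd3d, Cd3e and Cd3g at 0 by the rule. Of the 6 tumour or epithelial markers, Krt8, Krt18 and Krt20 were at 0 UMIs in both libraries' members and Hilpda-zero macrophages. Cdh1 stood at 21.4 and 22.4 CPM in members against 16.4 and 14.9 CPM in Hilpda-zero macrophages. At least 3 UMIs of the 6 together were held by 2.60% and 2.01% of members and by 1.23% and 1.20% of Hilpda-zero macrophages.

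Neutrophil markers were more frequent in the members. At least 3 UMIs of the 7 markers together were held by 12.7% of members (44 barcodes) and 0.739% of Hilpda-zero macrophages in UEIS LSL, and by 16.2% (97 barcodes) and 3.61% in UEIS KI. The summed level was 89.5 CPM in UEIS LSL members and 173 in UEIS KI members, against 23.9 and 146 in Hilpda-zero macrophages, with all 7 detected. Their top marker in UEIS LSL members was Mmp8, a collagenase that also belongs to the protease list, and in UEIS KI members S100a8. At least 3 UMIs of the osteoclast-like markers were held by 15.3% and 27.0% of members and by 6.30% and 10.9% of Hilpda-zero macrophages. These markers summed to 128 and 662 CPM in the members, with 4 of 5 detected and Calcr at 0, against 115 and 260 CPM. Fibroblast markers summed to 264 and 250 CPM in the members, of which 1 barcode gave 979 of 1236 UMIs in UEIS LSL and 1 barcode gave 1897 of 2209 in UEIS KI. Barcodes were then removed that held at least 3 UMIs of neutrophil, lymphocyte, mast cell, fibroblast, endothelial, epithelial or erythroid markers together. Osteoclast-like, monocyte and dendritic cell markers were not used for this removal. The hypoxia response list, given below, then had a median log2 ratio of 1.20 in UEIS LSL and 1.35 in UEIS KI. For the glycolysis list it was 0.99 and 0.91. The part of the removed barcodes in single genes was not tested.

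Plin2, the third marker of the label and not used by the gate, was higher in members of both libraries. In UEIS LSL it stood at 769 CPM in members and 200 CPM in Hilpda-zero macrophages, a log2 ratio of 1.94 (95% interval 1.88 to 2.0). In UEIS KI it stood at 583 and 232 CPM, a log2 ratio of 1.33 (1.27 to 1.38). It was spread over the cells, with at least 1 UMI in 328 of 346 and 576 of 597 members. At 3000 UMIs per barcode Plin2 was seen in 74.5% of UEIS LSL members and 42.1% of Hilpda-zero macrophages, and in 70.5% and 47.6% in UEIS KI. Plin2 was therefore common in both groups and more abundant in the members.

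Across all genes with at least 100 UMIs, those at least 1.5-fold higher in members made up 4.64% of 10086 in UEIS LSL and 4.73% of 10179 in UEIS KI. Those at least 1.5-fold lower made up 12.8% and 14%. The median log2 ratio of all these genes was -0.17 and -0.22, so most genes were slightly lower in CPM in the members. Centred on that median, 754 genes were higher and 706 lower in UEIS LSL in place of 468 and 1288, and 807 and 645 in UEIS KI in place of 481 and 1425. In both libraries together 2.96% of 9891 genes were higher each time (293) and 7.02% lower (694), or 468 and 313 after centring. The 11 genes of the rule take no part in these counts.

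Genes of the hypoxia response were higher almost as a block. Of 26 measured in UEIS LSL 22 were higher by the 1.5-fold limit and 0 lower, with a median log2 ratio of 1.13. Of 28 in UEIS KI 22 were higher and 0 lower, with a median of 1.28. Hilpda itself is not in the list. Bnip3, a receptor that marks mitochondria for removal, stood at 589 CPM in UEIS LSL members and 112 in Hilpda-zero macrophages, a log2 ratio of 2.39 (2.32 to 2.47). In UEIS KI Bnip3 stood at 718 and 173 CPM, a log2 ratio of 2.05 (1.99 to 2.1). Egln3, a prolyl hydroxylase that feeds back on HIF, was rare outside the members. It stood at 83.9 against 9.08 CPM in UEIS LSL, a log2 ratio of 3.21 (2.98 to 3.44), and at 122 against 15.4 CPM in UEIS KI, 2.99 (2.82 to 3.16).

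Further members of that list spanned protein folding, vessel growth and stress. Ero1a, an oxidase that forms disulphide bonds in the endoplasmic reticulum, stood at 314 against 59.3 CPM in UEIS LSL and 334 against 66.6 CPM in UEIS KI, log2 ratios of 2.40 and 2.33. Vegfa, the main growth factor for blood vessels, stood at 149 against 36.3 CPM and 136 against 37.1 CPM, log2 ratios of 2.03 and 1.88. Ndrg1, a stress gene that hypoxia induces in many cells, had log2 ratios of 1.94 and 2.25. Rarer genes showed larger ratios on few UMIs. Adm, which encodes the vessel-relaxing peptide adrenomedullin, gave 42 UMIs in UEIS LSL members and 202 in UEIS KI members, with log2 ratios of 2.80 (2.12 to 3.49) and 4.79 (4.14 to 5.52).

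A few genes of the list did not follow. Hif1a, the oxygen-regulated subunit of HIF-1, which is controlled mainly through protein stability, stood at 161 against 148 CPM in UEIS LSL and 151 against 133 CPM in UEIS KI, log2 ratios of 0.12 and 0.18. Car9, a carbonic anhydrase and a common hypoxia marker of tumour cells, stood at 6.62 against 9.70 CPM and 9.28 against 9.24 CPM. Pfkfb4, a regulator of glycolytic flux, had log2 ratios of -0.29 and -0.36, and Cited2, a feedback inhibitor of HIF, of 0.12 and 0.27.

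**Figure D1:**
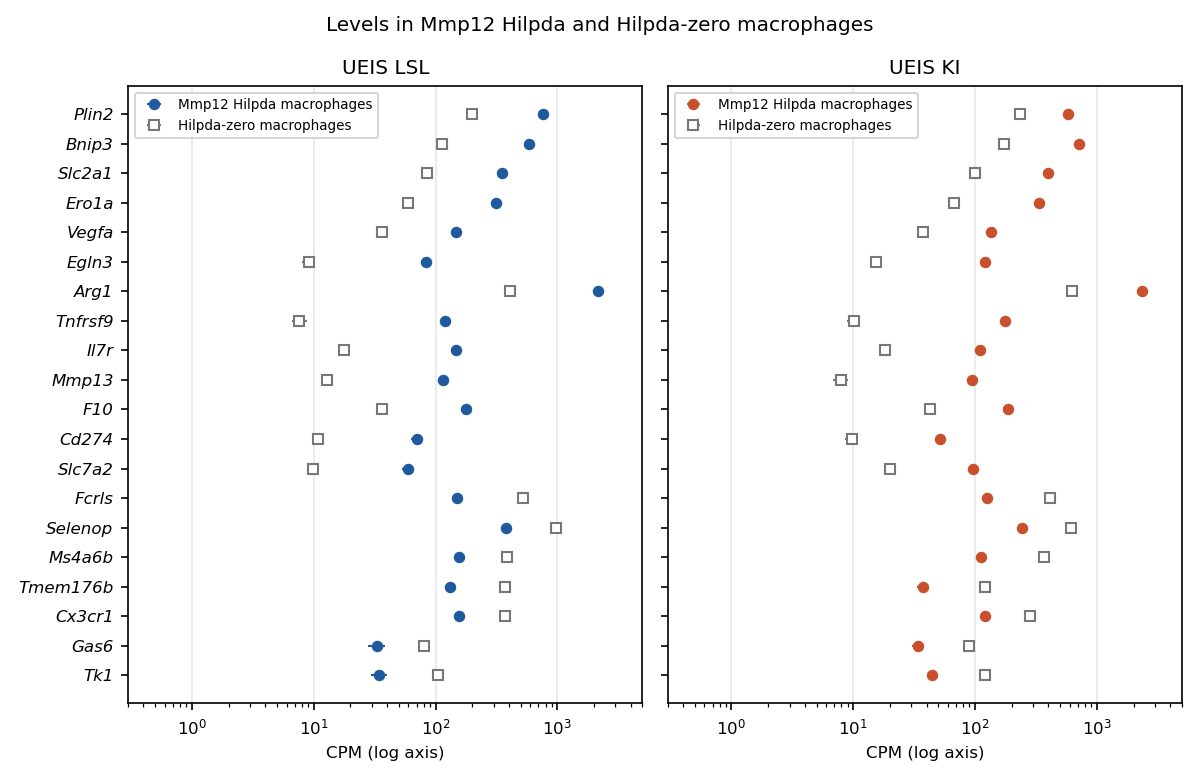
Levels of 20 genes in CPM on a log axis in UEIS LSL (left) and UEIS KI (right). Filled circles are Mmp12 Hilpda macrophages, open squares are Hilpda-zero macrophages, and bars are exact Poisson 95% intervals. From Plin2 down to Slc7a2 the circles lie to the right of the squares in both libraries, and from Fcrls down to Tk1 they lie to the left.

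Glucose uptake and glycolysis genes were higher as well. All 15 measured glycolysis genes passed the 1.5-fold limit in UEIS LSL, with a median log2 ratio of 0.94. In UEIS KI 14 of 16 passed, with a median of 0.83. The exceptions in UEIS KI were Pdk1, a kinase that restrains pyruvate entry into mitochondria, at 0.41, and Slc2a3, another glucose transporter, at -1.09 with 1.70 against 3.62 CPM. Slc2a1, the main glucose transporter of activated macrophages, belongs to the hypoxia response list and stood at 354 against 85.2 CPM in UEIS LSL, a log2 ratio of 2.06 (1.97 to 2.15). In UEIS KI Slc2a1 stood at 400 against 99.3 CPM, a log2 ratio of 2.01 (1.94 to 2.08). Pgk1, which makes ATP in glycolysis, stood at 1683 against 635 CPM and 1853 against 804 CPM, log2 ratios of 1.41 and 1.20. Slc16a3, the exporter of lactate, had log2 ratios of 1.46 and 1.15. Even the housekeeping enzyme gene Gapdh was 1.86-fold and 1.79-fold higher in the members. Glycolysis genes have processed pseudogenes, and how the authors' counting treated such copies is not given in the sources used here.

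Mitochondrial respiration genes showed little movement in level, apart from alternative subunits. Of 22 measured oxidative phosphorylation genes 2 were higher and 1 lower in each library. Ndufa4l2, a hypoxia-induced counterpart of the respiratory chain subunit Ndufa4, stood at 26.9 against 2.35 CPM in UEIS LSL, a log2 ratio of 3.52 (3.07 to 3.97). In UEIS KI Ndufa4l2 stood at 32.4 against 1.38 CPM, a log2 ratio of 4.56 (4.05 to 5.11). Its UMIs came from only 16 UEIS LSL members and 37 UEIS KI members. Ndufa4 itself was lower, 158 against 300 CPM and 165 against 340 CPM, log2 ratios of -0.92 and -1.05, over 234 and 421 members. Cox4i2, the alternative form of a cytochrome oxidase subunit used at low oxygen, had log2 ratios of 0.63 (0.04 to 1.18) on 34 UMIs of UEIS LSL members and 1.47 (1.15 to 1.78) on 169 UMIs of UEIS KI members. The usual form, Cox4i1, had log2 ratios of -0.12 and -0.09.

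Of 21 measured genes of lipid droplets and lipid handling 10 were higher and 0 lower in UEIS LSL, and 9 were higher and 0 lower in UEIS KI, with median log2 ratios of 0.40 and 0.28. Higher genes included fatty acid carriers and lipid-associated macrophage genes. Fabp5, a fatty acid binding protein, stood at 1054 against 351 CPM in UEIS LSL and 1220 against 517 CPM in UEIS KI. Gpnmb, a membrane glycoprotein of lipid-laden macrophages, stood at 99.5 against 6.61 CPM and 48.6 against 7.47 CPM, log2 ratios of 3.91 (3.66 to 4.17) and 2.70 (2.45 to 2.96), in 96 and 130 members. Lgals3, a lectin of phagocytes, had log2 ratios of 1.57 and 1.12. Cd36, a scavenger receptor that takes up lipid, was higher in UEIS LSL only, 92.5 against 19.4 CPM, while in UEIS KI it stood at 50.4 against 42.3 CPM. The difference between these ratios was not tested.

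Enzymes and transporters of stored lipid varied. Dgat1, which forms triglyceride, had log2 ratios of 0.63 and 0.60. Pnpla2, the lipase that Hilpda inhibits, had log2 ratios of -0.17 and -0.05, near the median of all genes. Trem2, a lipid receptor of tumour macrophages, had 0.03 and -0.12. Soat1, which esterifies cholesterol for storage in droplets, was higher at 0.82 and 0.65. In the list of cholesterol efflux and synthesis 5 of 14 genes were lower in each library, among them Hmgcs1 and Fdps of the synthesis pathway with log2 ratios of -0.85 and -0.87 in UEIS LSL and -1.09 and -0.74 in UEIS KI. Abcg1, an exporter of cholesterol, was higher at 1.17 and 0.95.

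Matrix proteases other than Mmp12 were also high in the members. Of the measured genes of proteases and their inhibitors 8 of 17 were higher and 4 lower in UEIS LSL, and 9 of 16 higher and 0 lower in UEIS KI. Mmp13, a collagenase, stood at 114 against 13.0 CPM in UEIS LSL, a log2 ratio of 3.14 (2.94 to 3.34), and at 94.3 against 7.94 CPM in UEIS KI, 3.57 (3.35 to 3.80). It came from 102 and 147 members, so most members held none. Adam8, a membrane protease, was broader, with UMIs in 306 and 553 members and log2 ratios of 1.89 and 1.20. Mmp9, a gelatinase, went opposite ways, 1.71 against 14.7 CPM in UEIS LSL and 81.8 against 33.0 CPM in UEIS KI. In UEIS KI members 83.0% of Mmp9 UMIs came from 5 barcodes.

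Iron and oxidative stress genes were higher in part. Of 14 measured 9 were higher in UEIS LSL and 7 in UEIS KI, with 0 lower and median log2 ratios of 0.73 and 0.53. Hmox1, which breaks down haem and is induced by haem and oxidants, stood at 1120 against 239 CPM in UEIS LSL and 1139 against 347 CPM in UEIS KI, log2 ratios of 2.23 and 1.72. Fth1, the heavy chain of the iron store ferritin, made up 25670 CPM of UEIS LSL members against 10242 CPM of Hilpda-zero macrophages, and 29249 against 12347 CPM in UEIS KI. The metal-binding metallothionein gene Mt2 stood at 231 against 42.0 CPM and 232 against 71.8 CPM. Slc7a11, the cystine importer that feeds glutathione synthesis, had log2 ratios of 1.26 and 1.59. It was counted in the stress response list, of which only 2 of 18 measured genes were higher in each library. Hspa5, the main chaperone of the endoplasmic reticulum, had -0.14 and -0.11.

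Genes of inflammation and of vessel and tissue growth were mixed. Of the inflammatory myeloid list 7 of 17 were higher in UEIS LSL and 8 of 19 in UEIS KI. Cxcl3, a chemokine for neutrophils, stood at 210 against 10.2 CPM in UEIS LSL and 91.3 against 13.4 CPM in UEIS KI, but 40.2% and 32.1% of its UMIs came from 5 barcodes. Il1a, an inflammatory cytokine, had log2 ratios of 2.20 and 2.55, and Il1b, its relative, of 0.15 and 0.50. Nos2, the nitric oxide synthase of classically activated macrophages, was rare but concentrated in members, with 52 UMIs in UEIS LSL members against 7 in Hilpda-zero macrophages and 236 against 19 in UEIS KI. Tnf had log2 ratios of -0.18 and -0.66. Of the growth factor list 6 and 7 of 14 were higher, including Pgf, a relative of Vegfa, at 3.04 and 2.86, Areg, a ligand of the epidermal growth factor receptor, at 2.13 and 1.93, and Thbs1, a matrix protein that inhibits vessels, at 1.13 and 1.15.

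**Figure D2:**
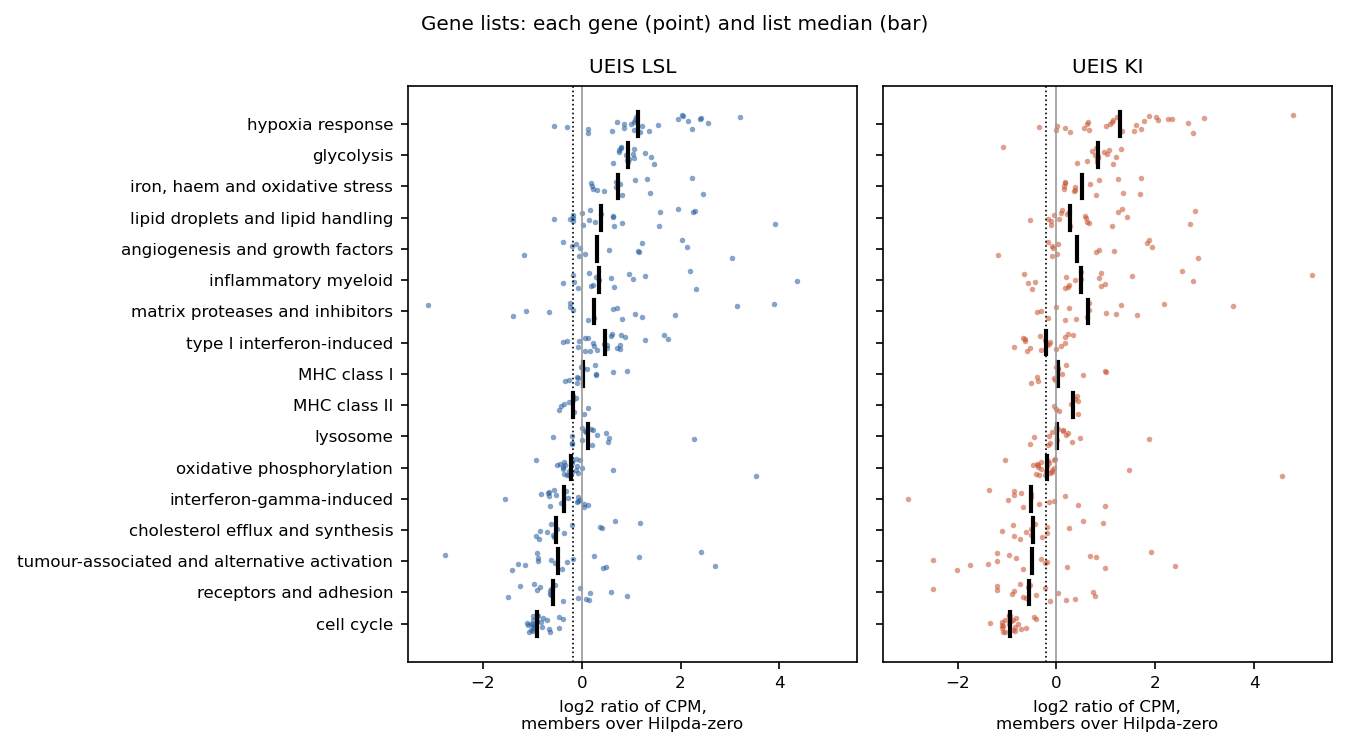
Log2 ratio of CPM in Mmp12 Hilpda macrophages (members) over Hilpda-zero macrophages for the measured genes (points) of named lists, in UEIS LSL (left) and UEIS KI (right). Black bars are list medians, the solid line is 0 and the dotted line is the median of all genes measured, -0.17 and -0.22. The hypoxia response has the highest median in both libraries (1.13 and 1.28) and the cell cycle the lowest (-0.90 and -0.93).

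Among all genes the rule for naming took the 12 with the largest counting-error bound in both libraries, out of 131 that were eligible as higher. Tnfrsf9 (4-1BB, a co-stimulatory receptor) led, at 120 against 7.64 CPM in UEIS LSL, a log2 ratio of 3.97 (3.74 to 4.20), and 177 against 10.1 CPM in UEIS KI, 4.12 (3.93 to 4.32). Mmp13, Egln3, Ero1a, Bnip3, Slc2a1 and Cxcl3, described above, were among the 12. Il7r, the receptor chain for interleukin 7, stood at 147 against 17.9 CPM and 110 against 18.3 CPM. Tnfrsf9 and Il7r are also T cell genes. The T cell markers, with the Cd3 genes at 0 by the rule, summed to 5.77 and 4.19 CPM in members. In Hilpda-zero macrophages they summed to 2.13 and 1.42 CPM. The part of T cell RNA in the 2 genes was not tested. Cd274 (PD-L1, the ligand that restrains T cells) stood at 70.7 against 10.9 CPM in UEIS LSL and 51.6 against 9.75 CPM in UEIS KI, log2 ratios of 2.70 (2.46 to 2.93) and 2.40 (2.18 to 2.63). F10, a coagulation factor, stood at 180 against 36 CPM and 188 against 42.9 CPM. Slc7a2, an importer of arginine, stood at 59.4 against 9.88 CPM and 95.9 against 20.2 CPM. Slpi, an inhibitor of neutrophil elastase, stood at 59.6 against 7.75 CPM and 127 against 18.2 CPM, with 41.6% and 28.9% of its UMIs in 5 barcodes.

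Some of these genes were as frequent in T cell barcodes as in members, or more so. At 1000 UMIs, Tnfrsf9 was seen in 22.8% of T cell barcodes and 10.4% of members in UEIS LSL, and in 24.3% and 15.1% in UEIS KI. Il7r was seen in 22.8% and 15.3%, and in 34.8% and 10.2%. Both are genes that T cells are known to express. Cd274 was seen in 9.45% and 8.38% in UEIS LSL, and in 6.96% and 4.36% in UEIS KI. For Slpi the UEIS LSL shares were 3.15% and 2.89%. In UEIS LSL Mmp13 was seen in 8.66% of T cell barcodes and 8.09% of members, and Cxcl3 in 7.87% and 8.67%. In UEIS KI the same shares were 0.870% and 7.37% for Mmp13 and 1.74% and 5.19% for Cxcl3. Hilpda-zero macrophages of UEIS LSL, taken from the same suspension, held Mmp13 in 1.20% and Cxcl3 in 0.848%. Free RNA and expression cannot be told apart for the T cell barcodes.

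Arginase went with arginine import. Arg1, which turns arginine into ornithine, stood at 2160 CPM in UEIS LSL members and 405 CPM in Hilpda-zero macrophages, a log2 ratio of 2.41 (2.37 to 2.45). In UEIS KI Arg1 stood at 2365 and 625 CPM, a log2 ratio of 1.92 (1.89 to 1.95). It was detected in 323 of 346 and 583 of 597 members. Spp1 (osteopontin, a secreted matrix protein of tumour macrophages) stood at 5136 against 2288 CPM in UEIS LSL and 12014 against 6908 CPM in UEIS KI. Both belong to the tumour-associated and alternative activation list, which was mixed. Of its genes 8 of 18 were lower in UEIS LSL and 9 of 18 in UEIS KI, and 3 and 5 were higher. The median log2 ratio of that list was -0.47 in UEIS LSL and -0.49 in UEIS KI. Over 17 settings the median ran from -0.71 to 0.38 in UEIS LSL and from -1.19 to 0.26 in UEIS KI. The sign of the list median therefore depended on the setting in both libraries. Mrc1, the mannose receptor, stood at 189 against 353 CPM and 151 against 347 CPM, and Stab1, a scavenger receptor, at 114 against 212 CPM and 134 against 308 CPM.

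Of 147 genes eligible as lower in members the rule named 12. Fcrls, an Fc receptor-like gene best known from microglia, led at 151 against 525 CPM in UEIS LSL, a log2 ratio of -1.80 (-1.91 to -1.69), and 126 against 414 CPM in UEIS KI, -1.72 (-1.81 to -1.63). Selenop, which exports selenium, stood at 377 against 967 CPM and 244 against 611 CPM. Cx3cr1, the fractalkine receptor, stood at 157 against 371 CPM and 122 against 280 CPM. Tmem176b, a membrane protein of myeloid cells, stood at 132 against 369 CPM and 37.3 against 120 CPM, and its neighbour Tmem176a had log2 ratios of -1.50 and -1.49. Ms4a6b had -1.32 and -1.71, the monocyte chemokine gene Ccl12 -1.14 and -1.31, Gas6, a ligand for clearing dead cells, -1.29 and -1.37, Cbr2, a carbonyl reductase, -1.41 and -2.0, Fcgrt, the neonatal Fc receptor, -1.31 and -1.17, and Rab3il1 -1.17 and -1.51. Of 18 measured receptors and adhesion genes 9 were lower in UEIS LSL and 8 in UEIS KI, with 2 higher each time.

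Several of these depended on which macrophages served as the comparison. When the Hilpda-zero barcodes also had to hold at least 3 Mmp12 UMIs, Gas6 turned to a log2 ratio of 0.34 in UEIS LSL and 0.54 in UEIS KI. Cbr2 turned to 0.71 in UEIS LSL, Ccl12 to 0.05 in UEIS KI and Mrc1 to 0.06 in UEIS KI. Fcrls stayed lower at -0.37 and -0.35, and Cx3cr1 at -0.57 and -0.63. The hypoxia response list had medians of 0.75 and 0.94 in that comparison.

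Cell cycle mRNA was lower in the members. Of 23 measured cell cycle genes 20 were at least 1.5-fold lower in UEIS LSL members and 21 in UEIS KI members, with 0 higher and median log2 ratios of -0.90 and -0.93. Mki67, a marker of proliferating cells, stood at 31.0 against 57.9 CPM in UEIS LSL and 46.2 against 89.8 CPM in UEIS KI. At 3000 UMIs per barcode it was seen in 3.81% of members and 9.71% of Hilpda-zero macrophages in UEIS LSL, and in 6.88% and 13.3% in UEIS KI. Tk1, which supplies thymidine for DNA synthesis, stood at 34.4 against 105 CPM and 44.4 against 120 CPM.

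The gate joins a pair of genes, so the C1q-gated macrophages were split into 4 sets, with neither (Mmp12 at 0 and Hilpda at 0), Hilpda of at least 2 with Mmp12 at 0, Mmp12 of at least 3 with Hilpda at 0, and both. Barcodes between these limits were left out. They held 2165, 343, 250 and 346 barcodes in UEIS LSL and 1762, 621, 219 and 597 in UEIS KI. Bnip3 followed both genes. It stood at 95.3, 407, 240 and 589 CPM over the 4 sets in UEIS LSL and at 142, 342, 358 and 718 CPM in UEIS KI. Plin2 stood at 197, 569, 238 and 769 CPM in UEIS LSL, high in both sets with Hilpda. In UEIS KI Plin2 stood at 230, 300, 257 and 583 CPM, and only the set with both was past 1.5-fold of the set with neither. Hmox1 in UEIS LSL was high with Hilpda alone (1318 CPM) and with both (1120 CPM), whereas in UEIS KI it stood at 472 CPM with Hilpda alone and 1139 CPM with both.

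Mmp13 and Tnfrsf9 were highest where both genes were present. Mmp13 stood at 8.91, 10.7, 35.2 and 114 CPM in UEIS LSL and 4.98, 8.74, 34.8 and 94.3 CPM in UEIS KI. Tnfrsf9 stood at 5.02, 27.9, 29.8 and 120 CPM, and at 4.70, 15.4, 54.8 and 177 CPM. The set with both genes had a Tnfrsf9 log2 ratio over Mmp12 alone of 2.01 (1.69 to 2.34) in UEIS LSL, and in UEIS KI of 1.69 (1.44 to 1.95). Fcrls was lowest with both, at 151 and 126 CPM, and highest with neither, at 603 and 473 CPM. Mki67 was lower with both (31.0 and 46.2 CPM) than with Mmp12 alone (70.1 and 83.1 CPM).

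**Figure D3:**
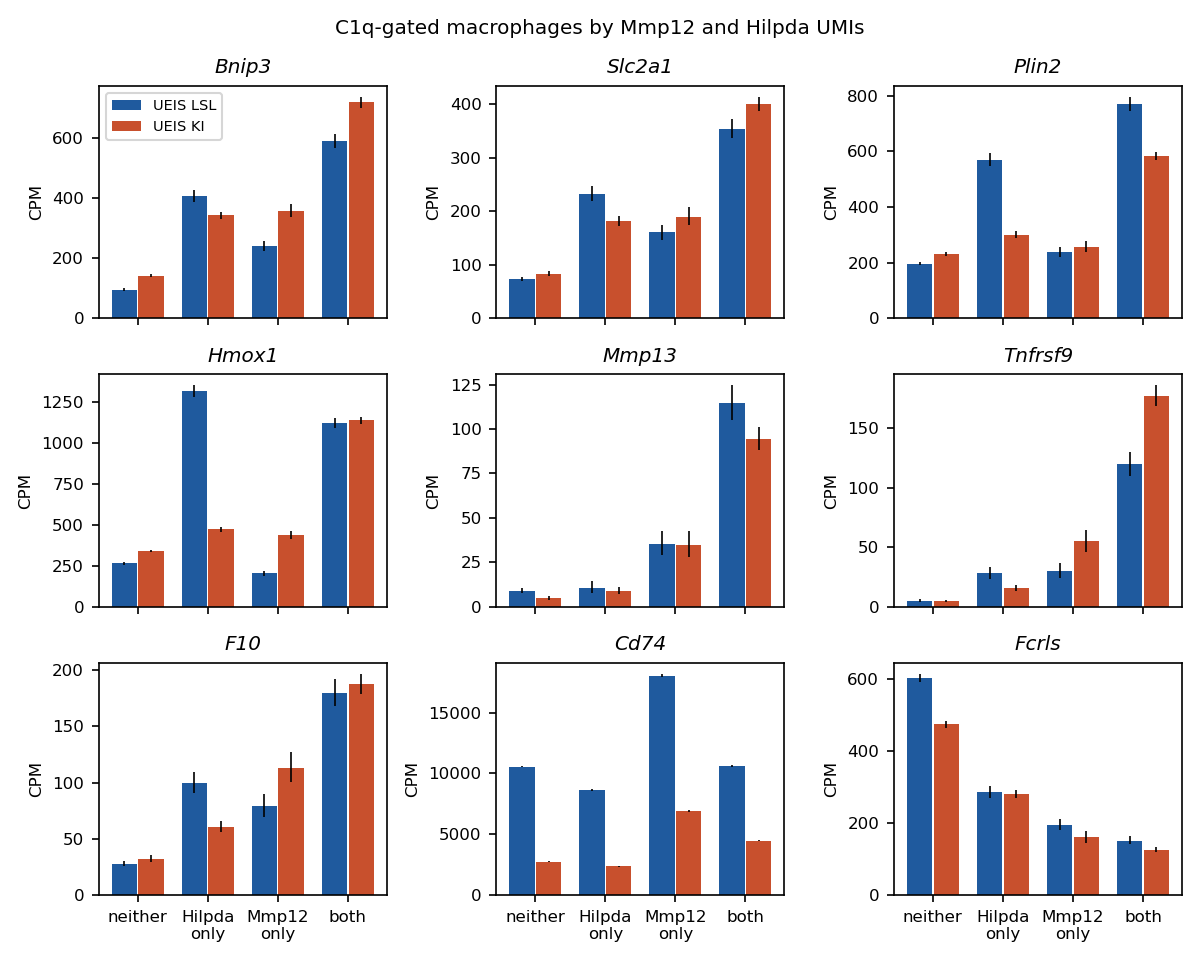
Levels of 9 genes in CPM in C1q-gated macrophages with neither gene, with at least 2 Hilpda UMIs and no Mmp12, with at least 3 Mmp12 UMIs and no Hilpda, and with both. Blue bars are UEIS LSL, orange bars UEIS KI, and black lines exact Poisson 95% intervals. Mmp13 and Tnfrsf9 stand highest in the set with both genes, while Cd74 is highest with Mmp12 alone.

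Within barcodes with at least 3 Mmp12 UMIs, levels were read over 6 bins of Hilpda UMIs, from 0 to 10 or more. The lowest bin held 250 barcodes in UEIS LSL and 219 in UEIS KI, and the highest 117 and 225. The median depth of a bin lay between 9898 and 13570 UMIs in UEIS LSL and between 10716 and 13056 UMIs in UEIS KI, and it was highest in the last bin of both. Plin2 went from 238 to 989 CPM in UEIS LSL and from 257 to 761 CPM in UEIS KI, higher in each bin than in the one before. Bnip3 did the same, from 240 to 730 CPM and from 358 to 871 CPM, and so did Arg1, from 667 to 2785 CPM and from 1167 to 2786 CPM. Mmp12 itself went from 841 to 3368 CPM and from 848 to 3471 CPM.

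Cd74, the invariant chain of MHC class II, went down over the same bins, from 18038 to 8362 CPM in UEIS LSL and from 6884 to 3310 CPM in UEIS KI. Tmem176b went from 289 to 80.7 CPM in UEIS LSL and from 78.6 to 25.6 CPM in UEIS KI. The course was uneven in UEIS KI, where Tmem176b stood at 72.8 CPM in the bin of 3 to 4 Hilpda UMIs. Fcrls changed less than these genes, from 195 to 157 CPM and from 160 to 120 CPM.

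**Figure D4:**
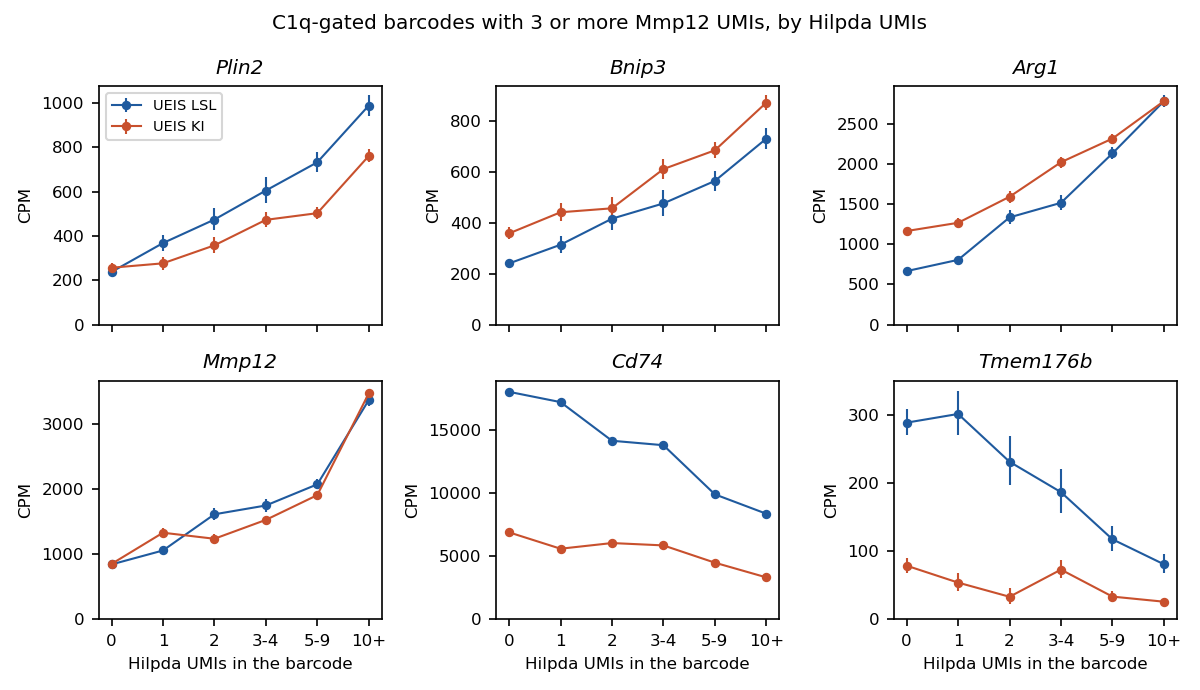
Levels of 6 genes in CPM in C1q-gated barcodes with at least 3 Mmp12 UMIs, by the number of Hilpda UMIs in the barcode. Points are sums over the barcodes of a bin, bars are exact Poisson 95% intervals, blue is UEIS LSL and orange UEIS KI. Plin2, Bnip3 and Arg1 are higher in each bin than in the one before in both libraries, and Cd74 is lowest in the last bin.

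Across single C1q-gated barcodes thinned to 3000 UMIs, the genes closest to Hilpda were taken by Pearson's r of log2(UMIs + 1), as a description over barcodes that share a library. In UEIS LSL (4030 barcodes) they were Arg1 (0.43), Bnip3 (0.41), Fth1 (0.40), Plin2 (0.37) and Ftl1 (0.37). In UEIS KI (4441 barcodes) they were Fth1 (0.39), Arg1 (0.39), Mmp12 (0.37), Bnip3 (0.35) and Basp1 (0.34). Plin2 stood at rank 19 in UEIS KI with an r of 0.26. Arg1, Bnip3 and Fth1 were thus near the top in both libraries.

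By its title the series concerns a micropeptide, UEIS, that attenuates interferon signalling downstream of cGAS and STING. The members of UEIS KI were set against those of UEIS LSL. Of 8117 genes with at least 100 UMIs, 2.82% were at least 1.5-fold higher in UEIS KI members (229) and 2.93% lower (238). In Hilpda-zero macrophages 3.42% and 3.69% of 10951 were. The gate removed barcodes with Cxcl9 or Rsad2, which are interferon genes, and removed more of them from UEIS LSL, so the remaining interferon genes were compared after part of the difference had been taken out.

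Of 30 type I interferon-induced genes in the matrices 15 reached 100 UMIs over the members of both libraries. Those 15 passed the limit as lower in members of UEIS KI, with a median log2 ratio of -1.35. A gene could reach 100 UMIs through UEIS LSL, where these genes were high, so the count describes those 15 genes and not the list. In Hilpda-zero macrophages 13 of 25 measured genes were lower, with a median of -0.60. Of the 15 genes measured in both groups 14 had a lower ratio in the members, and this count too describes those genes and not the list. Irf7, the transcription factor that amplifies interferon production, stood at 56.4 CPM in UEIS LSL members and 20.6 CPM in UEIS KI members, a log2 ratio of -1.45 (-1.73 to -1.17), and at 17.7 and 16.2 CPM in Hilpda-zero macrophages. Isg15, a ubiquitin-like interferon effector, stood at 55.7 and 22 CPM in members, a log2 ratio of -1.34 (-1.62 to -1.07). Rtp4 stood at 31.0 and 4.76 CPM, a log2 ratio of -2.70 (-3.23 to -2.20), and Oasl2, a relative of the antiviral oligoadenylate synthetases, at 39.3 and 8.49 CPM, -2.21 (-2.62 to -1.81). Ifitm3, a membrane antiviral protein, stood at 1217 and 635 CPM in 339 and 561 members.

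Seen from the other side, 10 of 24 measured type I interferon genes were higher in members than in Hilpda-zero macrophages in UEIS LSL and 0 lower, with a median log2 ratio of 0.48. In UEIS KI 0 of 18 were higher and 5 lower, with a median of -0.20. The first value was smaller, 0.12, with called doublets removed. It was 1.15 with the limits on Cxcl9, Rsad2 and Lyve1 lifted. In UEIS KI it was 0.22 against Hilpda-zero barcodes with at least 3 Mmp12 UMIs.

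Measured genes of interferon-gamma and antigen presentation were mostly lower in both cell groups of UEIS KI. Of 20 interferon-gamma-induced genes in the matrices 14 were measured in members. Of these 14 genes 10 were lower in UEIS KI members and 0 higher, with a median log2 ratio of -0.97. In Hilpda-zero macrophages 15 of 18 were lower, with a median of -0.89. Of 10 MHC class II genes in the matrices 8 were measured in members, and all 8 were lower in UEIS KI members, with a median of -1.25. In Hilpda-zero macrophages all 10 were lower, with a median of -1.69. Of the 8 MHC class II genes measured in both groups 7 had a ratio nearer 0 in the members. A gene of either list could be measured in members through its UMIs in UEIS LSL, where these genes were high. The counts in members therefore describe the measured genes and not the lists. Cd74 stood at 10587 CPM in UEIS LSL members and 4448 CPM in UEIS KI members, and at 11992 and 3316 CPM in Hilpda-zero macrophages. H2-Aa, a chain of the class II molecule, stood at 2761 and 1024 CPM in members and H2-Eb1, another chain, at 1855 and 637 CPM. H2 genes resemble each other, and how shared reads were assigned is not given in the sources used here. Of 12 measured MHC class I genes 6 were lower and 0 higher, with a median of -0.64.

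Between members and Hilpda-zero macrophages of the same library 0 MHC class II genes passed the 1.5-fold limit in either library, with medians of -0.18 in UEIS LSL and 0.33 in UEIS KI. Against Hilpda-zero barcodes with at least 3 Mmp12 UMIs the medians were -0.78 and -0.66. The set with Mmp12 alone had the highest Cd74 in both libraries, 18038 and 6884 CPM, and the sign in UEIS KI depended on which macrophages served as the comparison.

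In UEIS KI members 2 of 28 hypoxia response genes were higher than in UEIS LSL members and 0 lower, with a median log2 ratio of 0.20. They were Ankrd37, at 108 and 183 CPM, and Adm, at 8.97 and 22.9 CPM. Of 15 glycolysis genes 0 passed in either direction, with a median of 0.14. Plin2 was lower, 769 and 583 CPM, a log2 ratio of -0.40 (-0.46 to -0.34), while in Hilpda-zero macrophages it was 0.21 (0.16 to 0.27). Of the stress response list 6 of 17 genes were lower and 0 higher, with a median of -0.44, among them Ddit3, a factor of prolonged stress, at 44.8 and 27.7 CPM. The stress list was 0 higher and 3 of 18 lower in Hilpda-zero macrophages. Of 23 cell cycle genes, UEIS KI had 6 higher in members and 9 higher in Hilpda-zero macrophages.

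**Figure D5:**
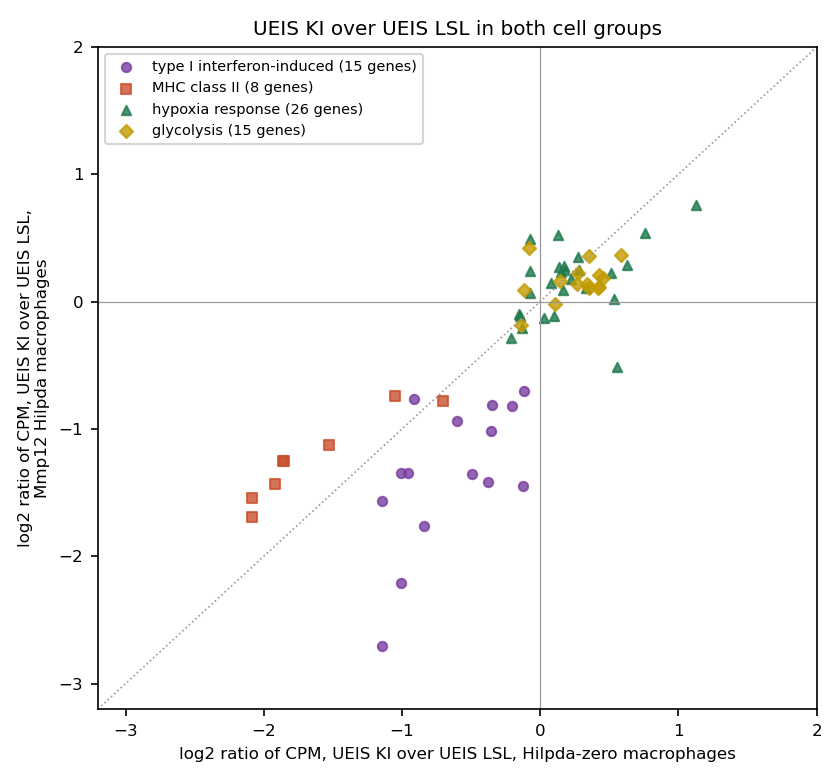
Log2 ratio of CPM, UEIS KI over UEIS LSL, in Hilpda-zero macrophages (horizontal) and in Mmp12 Hilpda macrophages (vertical) for genes measured in both. The dotted line marks equal ratios. Type I interferon-induced genes (purple circles) lie below it for 14 of 15 genes and MHC class II genes (orange squares) lie above it for 7 of 8. A gene of either list could be measured in members through UEIS LSL, where these genes were high. These counts therefore describe the genes shown and not the lists. On the vertical axis hypoxia response genes have a median of 0.20 over all those measured in members and glycolysis genes one of 0.14.

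Of the genes named as higher in UEIS KI members, several rested on a handful of barcodes. The granzyme genes Gzmf, Gzmc, Gzmd and Gzmg, proteases of cytotoxic lymphocytes, had 0 UMIs in UEIS LSL members and 681, 529, 468 and 460 UMIs in UEIS KI members, all from at most 4 barcodes each. They are close copies of each other. The NK cell markers summed to 1.25 CPM over all UEIS KI members, with Eomes at 0. That sum was 11 UMIs, of which 1 barcode gave 8. It covers all members, so it cannot tell whether the few barcodes with granzyme UMIs held lymphocyte RNA, which was not tested. Set against a floor of 3 counts, Gzmf was 120-fold higher, which is no ratio of measured levels and no lower bound. Ctsk, the bone-degrading cathepsin of osteoclasts, stood at 10.7 and 285 CPM with 61.0% of its UEIS KI UMIs in 5 barcodes, and Acp5, the osteoclast acid phosphatase, at 104 and 358 CPM with 51.5%. Both belong to the osteoclast-like markers, whose summed level was 128 and 662 CPM in the members. Lyz1, a lysozyme with a close copy in Lyz2, was spread more widely, 9.40 and 332 CPM from 19 and 209 barcodes, and in Hilpda-zero macrophages its log2 ratio was 4.28 (4.16 to 4.40). Cav1, which shapes membrane pits, stood at 18.8 and 63.1 CPM in 40 and 222 members, and Chil3, a chitinase-like protein of myeloid cells, at 50.4 and 167 CPM.

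The rule also named genes that were lower in UEIS KI members. Mgl2, a lectin of antigen-presenting macrophages, stood at 293 and 65.3 CPM, a log2 ratio of -2.17 (-2.31 to -2.03), and in Hilpda-zero macrophages at -2.66. Plac8, a monocyte gene, stood at 89.3 and 19.2 CPM, and Ly6a, an interferon-responsive surface protein, at 138 and 35.8 CPM. Tmem176b stood at 132 and 37.3 CPM, and Tmem176a had a log2 ratio of -1.69. Cxcl10, an interferon-induced chemokine for T cells, stood at 82.4 and 27.3 CPM. Ccl5, a chemokine, stood at 64.3 and 19.4 CPM, and Tm4sf1 at 54.0 and 14.9 CPM in 15 and 16 barcodes, of which 5 gave 96.0% and 90.9% of its UMIs.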

How the data were processed

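CD45+ cells of MC38 tumours were profiled in 1 library per group with the 10x Genomics 3' v3 chemistry, per the labels' protocols. The authors deposited UMI counts per gene and barcode, not normalised, made with Cell Ranger. The submitters' processing notes name version 2.1.1 and mm10, and 8.0.1 stands in the file header. The annotation is not given in the sources used here, and gene coordinates are those of GENCODE vM21 (GRCm38), which holds 52081 of the 55357 gene identifiers (94.1%). Members, gene lists and markers were chosen with earlier results of these data known.

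Counts were summed per library and group and scaled to CPM with exact Poisson 95% intervals. Intervals of ratios are exact and conditional (binomial). A group with 0 UMIs of a gene was given 3 counts as its floor. A gene was measured with at least 100 UMIs over the compared sums and called past 1.5-fold in either direction. Doublets were kept, and an alternative removed the highest Scrublet scores (scanpy 1.11.5), 0.8% per 1000 barcodes. No test was made, since cells are not replicates. Named genes were at least 50 CPM in 1 of the compared sums. The 12 highest and 12 lowest in both libraries, and the 10 each way for UEIS KI over UEIS LSL members, were ranked by the interval bound nearest 1. Predicted, mitochondrial, ribosomal protein, haemoglobin and receptor segment genes were left out of that ranking. Further genes were named as examples of lists after their values were seen. Of the list symbols 2 were not found. A further 2, Aldoa and Ddit3, each named 2 entries of the matrices, and only the entry with the lower Ensembl ID was used. The alternatives changed the gate, filters, scaling, depth and comparison, and removal of shared barcodes was added after the data were seen. Calculations used Python 3.11.15, numpy 2.4.6, scipy 1.17.1 and pandas 2.3.3, and the gene statistics were tested on simulated data.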

Additional observations from a re-analysis of the deposited data

Results flagged for a closer look

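The contrast of Mmp12 Hilpda over Hilpda-zero macrophages pointed opposite ways in the libraries for the type I interferon-induced list. Median log2 ratios were 0.48 in UEIS LSL (24 genes measured) and -0.20 in UEIS KI (18 genes). The difference of -0.68 was not tested. Over 17 settings the UEIS LSL median ran from 0.12 to 1.15 and the UEIS KI median from -0.50 to 0.22. The value of 0.22 came against Hilpda-zero barcodes with at least 3 Mmp12 UMIs, so the sign in UEIS KI depended on the comparison.

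The same held for the MHC class II list, with medians of -0.18 in UEIS LSL and 0.33 in UEIS KI, a difference of 0.51 that was not tested. Against Hilpda-zero barcodes with at least 3 Mmp12 UMIs both medians were negative, -0.78 and -0.66.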

How the results depend on the processing

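Over 17 settings, the reported one among them, the median of the hypoxia response list in members over Hilpda-zero macrophages ran from 0.75 to 1.36 in UEIS LSL and from 0.94 to 1.49 in UEIS KI. Within members the UEIS KI over UEIS LSL median of the type I interferon-induced list ran from -1.71 to -1.0 over 16 settings and that of MHC class II from -1.36 to -1.11 over 17. With at least 500 UMIs too few type I interferon-induced genes were left for a median. The cause of the following changes was not tested. No paired analysis was possible because each group held 1 library. In this part the shares are given as UEIS LSL and UEIS KI, and list values are median log2 ratios of members over Hilpda-zero macrophages unless stated.

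With Hilpda of at least 1 UMI the shares were 10.2% and 15.0% and the cell cycle median in UEIS KI -0.83. With Hilpda of at least 3 they were 6.68% and 11.3%, and -1.08. With Mmp12 of at least 6 they were 6.47% and 10.2%, with cell cycle medians of -1.44 and -1.06. In that setting the UEIS KI over UEIS LSL log2 ratios of Gzmf and Gzmc were -0.24 each and that of Tm4sf1 1.06. UEIS LSL members held no UMI of Gzmf or Gzmc, so both values are set against the floor of 3 counts and are no ratio of measured levels. With called doublets removed the UEIS LSL share was 7.07%, the type I interferon median in UEIS LSL 0.12, the cell cycle medians -1.19 and -1.26, and Retnla in UEIS KI over UEIS LSL members -0.23. With C1q of at least 30 the MHC class II median in UEIS KI was 0.47. Without limits on Cxcl9, Rsad2 and Lyve1 the shares were 9.54% and 11.5% (log2 ratio 0.27), the type I interferon median in UEIS LSL 1.15 and that of UEIS KI over UEIS LSL members -1.71. The cell cycle median in UEIS KI was then -0.79 and Ccl6 in UEIS KI -0.24. With barcodes holding markers of another type removed the shares were 6.81% and 10.7% and the cell cycle medians -1.17 and -1.26.

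Thinned to 3000 UMIs, the shares were 2.58% and 3.66%, the UEIS LSL medians of glycolysis and cell cycle 1.07 and -1.0, and 87 genes were higher and 108 lower in UEIS KI members. With each barcode counted alike the UEIS LSL medians of glycolysis and cell cycle were 1.09 and -1.0, and 1099 genes were lower in both libraries. Centred on the median of all genes, the counts higher and lower were 754 and 706 in UEIS LSL, 807 and 645 in UEIS KI, and 468 and 313 in both. The UEIS LSL medians of glycolysis and cell cycle were then 1.12 and -0.73, and the UEIS KI medians of MHC class II, cell cycle and oxidative phosphorylation 0.55, -0.72 and 0.021. With the comparison weighted to the members' depth the cell cycle medians were -1.37 and -1.22 and the MHC class II median in UEIS KI 0.55.

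Counts of genes higher and lower followed the limits. With no filter beyond 1 UMI they were 1590 and 2457 in UEIS LSL, 1571 and 2897 in UEIS KI, 689 and 1148 in both, and 1429 and 1440 for UEIS KI over UEIS LSL members. With at least 500 UMIs they were 237 and 542, 251 and 670, 167 and 343, and 39 and 69. With a fold limit of 2 they were 189 and 295, 227 and 311, 128 and 117, and 50 and 74.

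Against Hilpda-zero barcodes with at least 3 Mmp12 UMIs 249 genes were higher and 313 lower in UEIS LSL, 295 and 422 in UEIS KI, and 124 and 126 in both. The UEIS LSL medians of hypoxia response, glycolysis and MHC class II were then 0.75, 0.48 and -0.78, and the UEIS KI medians of glycolysis, type I interferon, MHC class II and cell cycle 0.39, 0.22, -0.66 and -0.69. Log2 ratios that changed sign in that setting were 0.71 for Cbr2, 0.34 for Gas6, 1.51 for Ccl8 and 2.81 for Cd163 in UEIS LSL. In UEIS KI they were 0.051 for Ccl12, 0.54 for Gas6, -0.087 for Trib3, 0.057 for Mrc1, 2.70 for Retnla and 0.044 for Ccl7. Genes under 100 UMIs in a pair of sums were not measured, which leaves rare members of the lists out.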
